A study of Homo sapiens with 12 samples.

Results

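NORAD, TUG1 and OIP5-AS1 are long noncoding RNAs, and their protein-protected stretches were followed along each RNA in the human embryonic kidney cell line HEK293T, which carries the SV40 large T antigen. A protected site belonged to an RNA when its midpoint fell inside the RNA's locus in build hg19, on the RNA's strand: chromosome 20, minus strand, 34633544 to 34638882 for NORAD (also named LINC00657), chromosome 22, plus strand, 31365600 to 31375400 for TUG1, and chromosome 15, plus strand, 41576100 to 41602000 for OIP5-AS1. These spans are 5339, 9801 and 25901 bases long. Of 513381 sites in 6 replicate lists, 303 were members: 145 on NORAD, 104 on TUG1 and 54 on OIP5-AS1.

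The assay, PIP-seq, sequences the RNA that survives a nuclease. All cells were cross-linked with 1% formaldehyde for 10 minutes, and the reaction was stopped with 125 mM glycine. There were 4 groups of 3 libraries: footprints made with the single-strand nuclease RNase ONE (ssRNase), footprints made with the paired-RNA nuclease RNase V1 (dsRNase), and a digestion control for each nuclease, in which protein was removed before the nuclease was added. A site is a stretch with more reads in a footprint library than in its control, so the 12 libraries give 3 ssRNase lists and 3 dsRNase lists. ssRNase leaves paired RNA uncut with or without protein, and dsRNase leaves unpaired RNA uncut, so each control holds what structure alone protects. Nothing in the labels says that the replicates came from separate cultures, and p-values here measure the spread between these lists, which may be technical.

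NORAD is an unspliced, abundant cytoplasmic RNA known for carrying many copies of the motif bound by the PUMILIO proteins, which repress the mRNAs they bind, and for limiting how much PUMILIO those mRNAs meet. TUG1 is a spliced RNA first described in the developing retina and found in both nucleus and cytoplasm. OIP5-AS1, known as Cyrano in fish and mouse, is spliced and is known for an unusually complementary site for the microRNA miR-7, which it causes to be degraded in mouse. An RNA of this kind acts largely through the proteins and RNAs it binds, so where protein covers it is a direct part of its description.

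The sequence elements these RNAs are known for are shown here because they mark where well-studied partners bind. The motif was searched as TGTANATA, where N is any base, in the longest transcript of each gene in GENCODE 29 (build GRCh38). NORAD-201 is 5339 nt long and held 15 copies on its own strand and 1 on the reverse complement. Of 4358 transcripts within 10% of its length, 42.9% held at least 1 copy, and 3, NORAD-201 itself among them, held 15 or more. No 2 copies overlapped in NORAD-201. The first copy, copies from the middle of the RNA and the last are given with their flanks, the motif in capitals. The first base of each motif, counted from the 5′ end of the transcript, is in the name. The flank of the copy at 3275 also holds the next copy, at 3284 to 3291, left in lower case.
NORAD-201 motif at 761: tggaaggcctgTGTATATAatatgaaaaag
NORAD-201 motif at 2466: gaataacacttTGTAAATAgcttttaaaaa
NORAD-201 motif at 3275: ttactgtgctgTGTATATAgtgtatataag
NORAD-201 motif at 4599: attagcctattTGTAAATAcctttgttata

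TUG1-217, of 7469 nt, held 2 copies, and 55.5% of 1939 transcripts of similar length held at least 1. OIP5-AS1-201, of 8829 nt, held 1 copy, and 63.7% of 1235 transcripts of similar length held at least 1. The miR-7 site of OIP5-AS1-201 lies at bases 2865 to 2894. It is printed with the bases that match the seed (bases 2 to 8 of the microRNA) in capitals, beside the mature microRNA from RefSeq (GRCh38.p14) with its seed in capitals.
hsa-miR-7-5p: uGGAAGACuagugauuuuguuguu
OIP5-AS1-201 miR-7 site: taagaacaacaaaatcaccaatGTCTTCCa

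Beyond the seed, this site had a run of 14 further paired bases starting at base 11 of the microRNA. The other 2 seed matches in OIP5-AS1-201, at bases 724 to 730 and 8167 to 8173, had runs of 5 and 3 bases. Motif positions are counted on GRCh38 transcripts and protected sites on the hg19 loci. Whether sites lie on these elements was not tested, and exons and introns of the loci are not analysed here.

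The ssRNase lists held 209922, 57481 and 172079 sites (replicates 1, 2 and 3), and the dsRNase lists held 23925, 28413 and 21561. Their sites summed to 8.15 times as many bases with ssRNase as with dsRNase on average, and the median site length was 42 to 44 nt in ssRNase lists and 33 to 34 nt in dsRNase lists. Minus-strand sites made up 56.6% to 58.8% of ssRNase lists and 63.2% to 78.4% of dsRNase lists. The depth behind the sites is unknown, because the lists give no read counts, and the level of each RNA was not analysed here. ssRNase replicate 2 was the shortest of its kind.

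On NORAD, protein protection was found with both nucleases in every list. The ssRNase lists held 39, 19 and 29 NORAD sites, a mean of 29 ± 10.0 (SD, n = 3), against 17, 22 and 19 sites, 19.3 ± 2.52, in dsRNase lists. The groups overlapped, and the difference did not exceed the spread between lists (2-sided exact permutation p = 0.3). Counted in bases, ssRNase sites covered 2228, 859 and 1229 bases of NORAD, which is 41.7%, 16.1% and 23.0% of the RNA, against 512, 619 and 686 bases, or 9.59%, 11.6% and 12.8%, in dsRNase lists. Every ssRNase list lay above every dsRNase list in bases, by 2.38 times on average, with p = 0.1 in the exact permutation test, the smallest that 3 lists against 3 allow. Of 31429 features tested (windows of 10000 bp on 1 strand with a site in at least 3 of the 6 lists, the 3 loci standing in for the windows they touch), 67.9% had every ssRNase list above every dsRNase list in bases, so that separation was common to most features. Features with sites in the 3 ssRNase lists alone pass this filter and have that separation by construction. Every share of the features tested given below rests on the same filter. With every list shortened to its 21561 best-scoring sites, NORAD bases numbered 887, 616 and 403 in ssRNase lists, against 512, 577 and 686 in dsRNase lists, and the groups overlapped (exact permutation p = 0.8).

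Set against the size of each list, NORAD took a larger place in the dsRNase lists. Its sites held 219, 295 and 152 of every 1000000 site bases in ssRNase lists, 222 ± 71.5 (SD, n = 3), against 622, 632 and 859, 704 ± 134, in dsRNase lists. All 3 dsRNase lists were above all 3 ssRNase lists, as in 9.58% of the features tested. The difference of ssRNase minus dsRNase was -1.61 (SE 0.283) on the log2(share + 20) scale, with a limma adjusted p of 0.0122. limma called 26.6% of features higher with ssRNase and 7.04% higher with dsRNase, and the median difference over all features was 0.43. By mean share NORAD ranked 136 of 31429 features with ssRNase and 52 with dsRNase. The call was lost when the lists were shortened to equal numbers of their best-scoring sites (difference -0.81, limma adjusted p = 0.102) and without any 1 of the ssRNase lists (limma adjusted p = 0.256, 0.255 and 0.389 without replicates 1, 2 and 3), while with shares taken within the minus strand the difference was -1.34 (limma adjusted p = 0.0208), beside a median over all features of 0.72.

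Among features as widely protected as NORAD this direction was not rare. Of 4482 features with a site in all 6 lists, 1.63% were called higher with ssRNase, 34.0% were called higher with dsRNase, and the median difference was -0.69. In 615 of them, 13.7%, the difference was more negative than that of NORAD.

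TUG1 was protected almost wholly in ssRNase lists. They held 46, 12 and 38 TUG1 sites, 32.0 ± 17.8 (SD, n = 3), against 1, 5 and 2 sites, 2.67 ± 2.08, in dsRNase lists. The ssRNase sites covered 2318, 562 and 1739 bases, against 27, 144 and 64 bases in dsRNase lists. Leaving out 11 bases of an ssRNase replicate 1 site that ran past the end of the locus, the share of the locus covered was 23.5%, 5.73% and 17.7% with ssRNase and 0.275%, 1.47% and 0.653% with dsRNase. The groups did not overlap in sites or in bases, a separation in bases that 67.9% of features had, and the mean number of bases was 19.7 times as high with ssRNase, in lists 8.15 times as large (exact permutation p = 0.1, the smallest possible). Among the 21561 best-scoring sites of each list, TUG1 bases numbered 333, 156 and 139 with ssRNase, against 27, 28 and 64 with dsRNase, a ratio of 5.28 with no overlap. Per 1000000 site bases of the list, TUG1 held 227, 193 and 215 in ssRNase lists, 212 ± 17.5, against 32.8, 147 and 80.1, 86.7 ± 57.4, in dsRNase lists (SD, n = 3 each). These did not overlap either, which held for 40.1% of the features tested, among them features with sites in ssRNase lists alone. The limma difference was 1.27 (SE 0.427) with an adjusted p of 0.0679, short of the threshold of 0.05. Of the 6 fits that left out 1 list, it passed in 1, without dsRNase replicate 2 (1.67, limma adjusted p = 0.0255), and the others had adjusted p from 0.0815 to 0.524. TUG1 had a site in all 6 lists. Of the 4482 features with that property, 1.63% were called higher with ssRNase, and the median difference was -0.69. In 33 of them the difference was above that of TUG1, and 99.2% had a lower one. TUG1 itself was not called, and its dsRNase values rest on few sites.

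OIP5-AS1, the longest locus, had the fewest sites. The ssRNase lists held 22, 10 and 17 sites, 16.3 ± 6.03 (SD, n = 3), against 3, 2 and 0 sites, 1.67 ± 1.53, in dsRNase lists. They covered 1174, 478 and 782 bases with ssRNase, against 101, 65 and 0 bases with dsRNase. The groups did not overlap in either measure, as for bases in 67.9% of features, and the mean number of bases was 14.7 times as high with ssRNase (exact permutation p = 0.1, the smallest possible). Among the 21561 best-scoring sites of each list, OIP5-AS1 bases numbered 67, 162 and 229 with ssRNase, against 101, 65 and 0 with dsRNase, so the groups overlapped, with a ratio of 2.76 (exact permutation p = 0.2). Per 1000000 site bases, OIP5-AS1 held 115, 164 and 96.5 in ssRNase lists, 125 ± 34.8, against 123, 66.4 and 0, 63.0 ± 61.4, in dsRNase lists (SD, n = 3 each). Here the groups overlapped, because dsRNase replicate 1 stood above 2 of the ssRNase lists, and the limma difference of 1.19 (SE 0.736) had an adjusted p of 0.279. Because the loci of TUG1 and OIP5-AS1 are longer than their longest transcripts, their percent coverage includes bases outside those transcripts and is not set against that of NORAD.

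**Figure D1:**
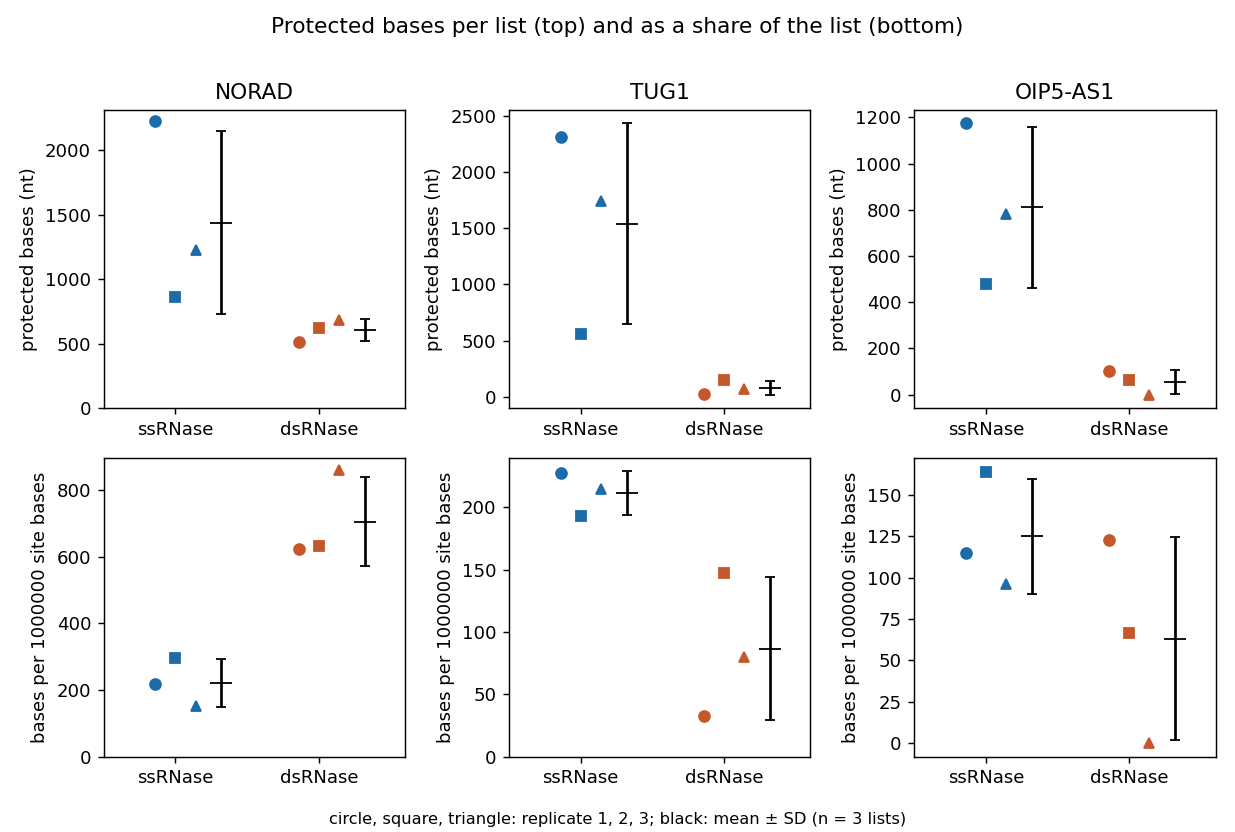
Values of the 3 RNAs in each of the 6 replicate lists, with points for lists and bars for the mean and SD of 3 lists of a nuclease. NORAD stands at 152 to 295 per 1000000 site bases with ssRNase and at 622 to 859 with dsRNase, while TUG1 stands at 193 to 227 with ssRNase and at 32.8 to 147 with dsRNase.

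The balance among the 3 RNAs followed the same order. NORAD held 39.0%, 45.2% and 32.8% of the bases protected on the 3 RNAs in ssRNase lists, against 80.0%, 74.8% and 91.5% in dsRNase lists. TUG1 held 40.5%, 29.6% and 46.4% in ssRNase lists, against 4.22%, 17.4% and 8.53% in dsRNase lists. OIP5-AS1 held 20.5%, 25.2% and 20.9% in ssRNase lists, against 15.8%, 7.85% and 0% in dsRNase lists. The lists did not overlap for any of the 3 RNAs, and these shares are tied to each other, since they add to 100% within a list. In the dsRNase lists the 3 RNAs had 58, 8 and 5 sites, so shares of TUG1 and OIP5-AS1 there rest on few sites.

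NORAD sites were found again from list to list. An overlap of 1 nt or more with a site of another ssRNase list was found for 76.9%, 89.5% and 96.6% of the NORAD sites of the ssRNase lists, and with another dsRNase list for 70.6%, 72.7% and 57.9% of those of the dsRNase lists. For all sites of those lists the shares were 52.8%, 89.9% and 62.2% with ssRNase and 51.4%, 47.9% and 54.9% with dsRNase. NORAD lay above its whole list in 5 of the 6 lists, the exception being ssRNase replicate 2, the shortest ssRNase list. The whole lists are not matched to NORAD for how densely sites lie, and dense sites overlap more easily. For TUG1 the ssRNase shares were 60.9%, 91.7% and 78.9%, and for OIP5-AS1 they were 54.5%, 90.0% and 58.8%.

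Sites of both nucleases often fell on the same bases of NORAD. A dsRNase site was overlapped by 61.5%, 68.4% and 51.7% of NORAD ssRNase sites, by 8.70%, 16.7% and 13.2% of TUG1 ssRNase sites and by 13.6%, 20% and 11.8% of OIP5-AS1 ssRNase sites. For all sites of the ssRNase lists these shares were 15.1%, 23.2% and 15.4%. NORAD stood above its lists in each case. The shares of TUG1 and OIP5-AS1 were below those of the lists, but they rest on 4, 2 and 5 TUG1 sites and 3, 2 and 2 OIP5-AS1 sites. With so few sites, no deficit is read from them. In the other direction, 88.2%, 86.4% and 84.2% of NORAD dsRNase sites overlapped an ssRNase site, against 73.9%, 75.5% and 76.6% of all dsRNase sites. Of the 8 TUG1 dsRNase sites 6 overlapped an ssRNase site, and of the 5 OIP5-AS1 dsRNase sites 4 did. These shares are descriptions, with no test, since sites of 1 RNA are not replicates. Sites of any ssRNase list covered 47.9% of NORAD, and an overlap of 1 nt is easier to meet where sites are dense. The shares over all sites are not matched for that density.

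Along NORAD, 47.9% of the bases lay in a site of at least 1 ssRNase list, 23.3% in a site of at least 1 dsRNase list, and 54.7% in a site of any list. Of the 1243 bases protected in any dsRNase list, 880, or 70.8%, also lay in an ssRNase site, and 363 did not. A stretch of 40 bases, chromosome 20 from 34634230 to 34634269, was protected in all 6 lists. It lies at positions 4614 to 4653, counted from the 5′ end of the locus, and was the only stretch on the 3 RNAs with that property. It lay inside the best-scoring NORAD sites of ssRNase replicate 2, at positions 4607 to 4653, and of dsRNase replicate 2, at positions 4614 to 4666. At least 5 lists covered 9 stretches of NORAD, among them positions 1179 to 1205, 388 to 406 and 2464 to 2476.

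Counted base by base, other stretches of NORAD lay in sites of 1 nuclease alone. In all 3 ssRNase lists and no dsRNase list there were 13 stretches, the longest at positions 3830 to 3878, 3262 to 3301 and 2507 to 2545. In all 3 dsRNase lists and no ssRNase list there were 3 stretches, of 28 bases at positions 543 to 570, of 25 bases at positions 24 to 48 and of 1 base. Such a stretch can be the edge of sites that overlap between nucleases. Positions 2507 to 2545 adjoined a dsRNase replicate 2 site, at 2493 to 2506. Positions 543 to 570 adjoined an ssRNase replicate 2 site, at 571 to 600. The ssRNase lists were 8.15 times as large in bases, and no share over other features is given beside these counts. The 25-base stretch near the 5′ end was the best-scoring NORAD site of dsRNase replicate 1. The longest gaps without a site in any list were 302 bases, at positions 4748 to 5049, and 254 bases, at positions 3418 to 3671.

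**Figure D2:**
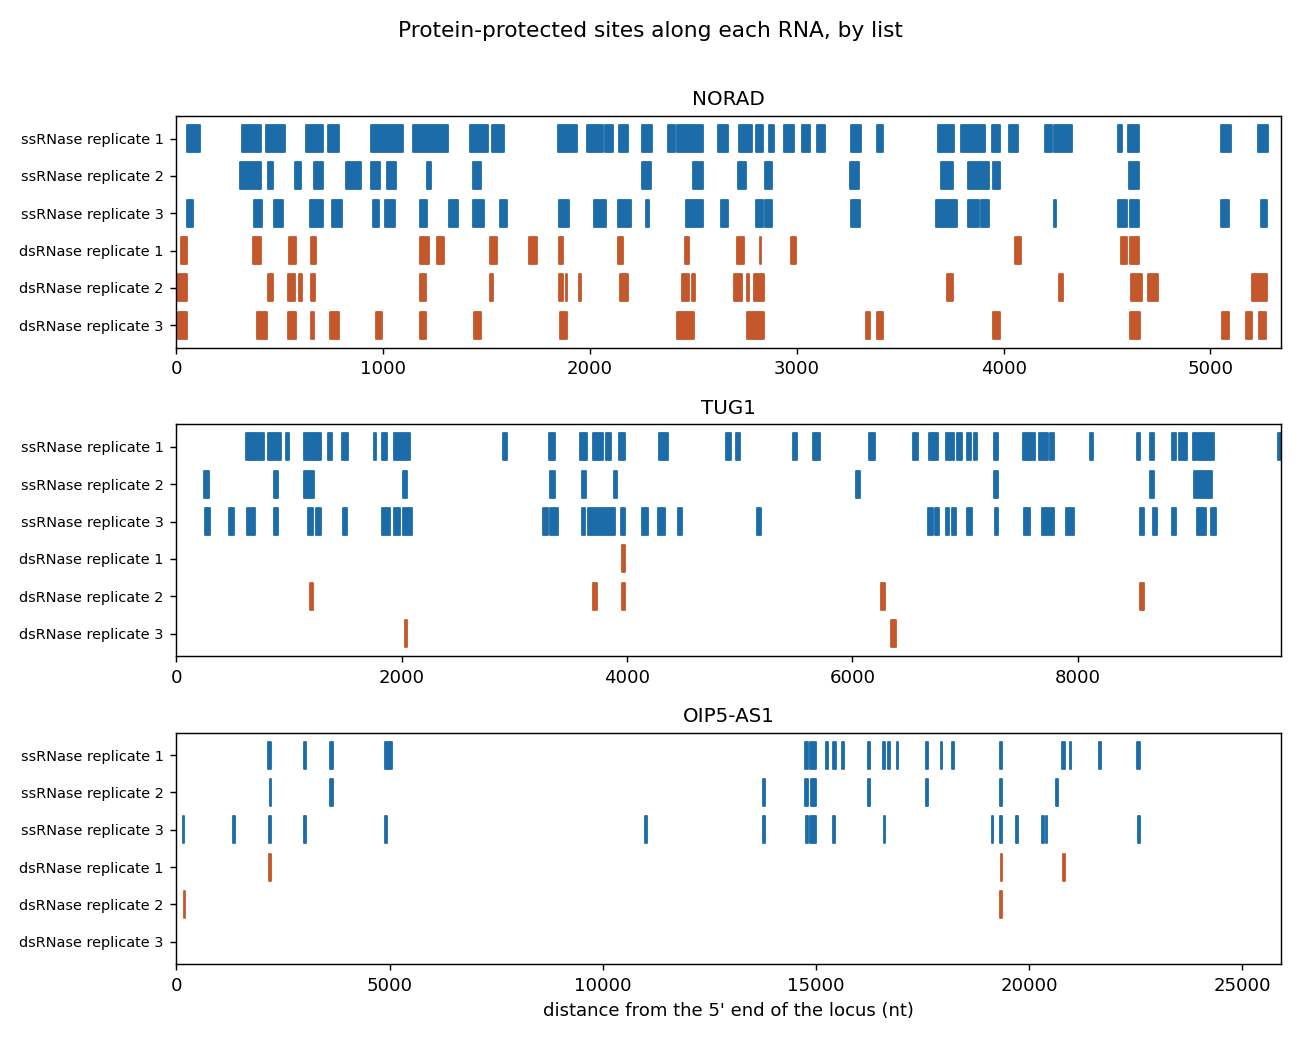
Each protected site drawn to scale along its RNA, with position from the 5′ end of the locus on the horizontal axis and 1 row for each list, ssRNase rows above dsRNase rows. NORAD carries sites in every row, with gaps that differ between rows, and TUG1 and OIP5-AS1 carry 8 and 5 dsRNase sites.

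With ssRNase, NORAD held more protected bases toward its 5′ end. The 5′ side of the locus held 60.2%, 58.3% and 61.8% of its ssRNase bases, against 66.0%, 47.7% and 56.9% of its dsRNase bases. Every ssRNase list was above an even split, and 1 of the dsRNase lists was under it. When the locus was divided into 10 equal stretches, the second, at positions 535 to 1068, had the highest ssRNase mean, with 266, 235 and 186 bases, against 58, 66 and 121 bases with dsRNase. The seventh, at positions 3204 to 3737, held 134, 85 and 107 bases in ssRNase lists, against 0, 14 and 46 bases in dsRNase lists, the lowest dsRNase mean of the 10. Near the 3′ end, in the last stretch, ssRNase lists held 98, 0 and 69 bases and dsRNase lists held 0, 69 and 93 bases.

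TUG1 had 285 bases that all 3 ssRNase lists shared and none that all 3 dsRNase lists shared. Sites of any ssRNase list covered 30.9% of its locus, and sites of any dsRNase list covered 2.14%. The longest stretch shared by the ssRNase lists had 44 bases, chromosome 22 from 31366765 to 31366808, at positions 1166 to 1209 of the locus. A dsRNase replicate 2 site, at positions 1185 to 1212, lay over part of it. In 10 stretches all 3 ssRNase lists and no dsRNase list had a site, among them positions 3316 to 3357, 9070 to 9108 and 868 to 900. The dsRNase lists met once on TUG1, where sites of replicates 1 and 2 shared 25 bases at positions 3958 to 3982. The longest gap without any site was 814 bases, at positions 2088 to 2901 of the locus, which is longer than the longest TUG1 transcript.

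OIP5-AS1 protection lay mostly toward the 3′ side of the genomic locus, which held 865, 391 and 541 bases in ssRNase lists. The 5′ side held 26.3%, 18.2% and 30.8% of its ssRNase bases, under an even split in every list. The sixth of 10 equal stretches, at positions 12951 to 15541, held 299, 232 and 289 bases with ssRNase, 33.7% of all its ssRNase bases, and none with dsRNase. Within it the ssRNase lists shared 58 bases at positions 14882 to 14939, 54 bases at 14941 to 14994 and 46 bases at 14773 to 14818. The best-scoring OIP5-AS1 site of ssRNase replicate 3, at positions 14852 to 14994, ranked at the 97.9th percentile of scores in its list.

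That block of OIP5-AS1 faced protected sites on the other strand. Minus-strand sites inside the locus numbered 5, 3 and 5 in ssRNase lists and none in dsRNase lists, and in all 3 ssRNase lists they covered most of chromosome 15 from 41590809 to 41590937, opposite the bases at positions 14773 to 14818. Bases protected on both strands numbered 156, 121 and 154 in the ssRNase lists. NORAD had 2, 1 and 2 plus-strand sites with ssRNase and none with dsRNase, and TUG1 had none. Not every opposite-strand site faced a site of the RNA. Sites that faced one on the other strand made up 9.09%, 20% and 11.8% of the OIP5-AS1 ssRNase sites, 2 sites in each list. For NORAD the ssRNase shares were 5.13%, 5.26% and 13.8%. Over all sites, 7.16%, 11.7% and 8.68% in ssRNase lists faced a site on the other strand, against 0.510%, 0.690% and 0.979% in dsRNase lists. Whether facing sites come from a partner transcript or from reads on both strands was not tested.

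Of the 5 dsRNase sites of OIP5-AS1, 2 met at 1 place. The 34 bases of chromosome 15 from 41595433 to 41595466, at positions 19334 to 19367, were protected in 5 lists, all but dsRNase replicate 3, which had no OIP5-AS1 site. The longest gaps without any site were 5932 bases, at positions 5057 to 10988, and the last 3308 bases of the locus. The locus has 25901 bases and the longest OIP5-AS1 transcript 8829 nt. Its gaps, sides and 10 stretches therefore include bases outside that transcript, and which bases those are was not analysed.

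**Figure D3:**
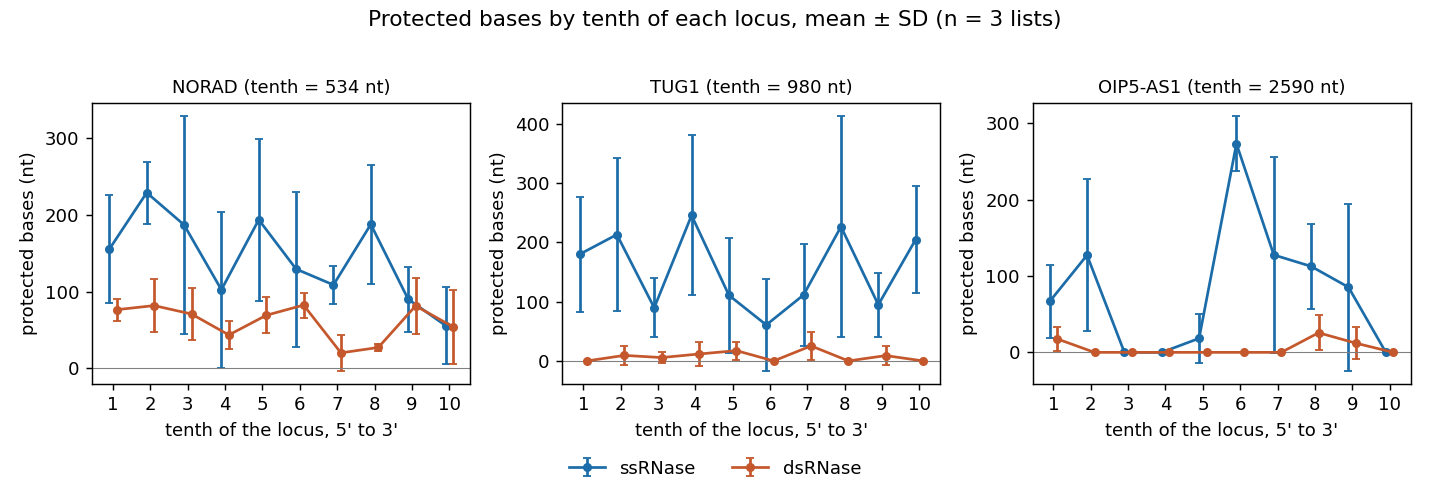
Protected bases in 10 equal stretches of each locus from the 5′ end (horizontal axis), as the mean and SD of 3 lists of each nuclease. The sixth stretch of OIP5-AS1 holds 299, 232 and 289 bases in ssRNase lists and none in dsRNase lists.

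NORAD sites scored above the middle of their lists, and were shorter with dsRNase than with ssRNase. The median NORAD site was 44.3 ± 3.21 nt long with ssRNase and 29.5 ± 2.78 nt with dsRNase (mean and SD of 3 list medians), against medians of 42 to 44 nt and 33 to 34 nt over the lists. The longest site of the 303 was on NORAD, 172 nt in ssRNase replicate 1, at positions 1142 to 1313. The score the authors gave each site can be ranked only within a list. The median NORAD site stood at percentiles 82.3, 69.9 and 68.7 of the ssRNase lists and at 63.9, 64.4 and 57.8 of the dsRNase lists, above the middle of every list. In the best-scoring 10% of its list were 20 of the 87 NORAD ssRNase sites and 7 of its 58 dsRNase sites.

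TUG1 medians stood at percentiles 33.9, 21.2 and 52.9 of the ssRNase lists and at 30.6, 7.38 and 30.1 of the dsRNase lists. Of its 96 ssRNase sites 43 stood above percentile 50 of their list, with tied scores given their mean rank, and of its 8 dsRNase sites none did. OIP5-AS1 medians stood at percentiles 63.3, 45.3 and 36.1 of the ssRNase lists, above the middle in replicate 1 alone. They stood at 44.5 and 47.2 of dsRNase replicates 1 and 2. Of the 49 OIP5-AS1 ssRNase sites 31 stood above percentile 50 of their list (18, 5 and 8 by list), and 1 of its 5 dsRNase sites did. Several of those in ssRNase replicate 1 shared a tied score at percentile 50.1, so they stood at the middle of the list.

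In the list the authors merged over both nucleases, NORAD had 45 sites, TUG1 had 57 and OIP5-AS1 had 32, of 293016 in all. For each merged site the list gives the replicate sites it was built from. Both nucleases stood behind 24 of the NORAD sites (53.3%), 5 of the TUG1 sites (8.77%) and 3 of the OIP5-AS1 sites (9.38%), against 35179 sites (12%) of the whole merged list. All 6 replicate lists stood behind 5 NORAD sites (11.1%) and behind no site of the other two RNAs, against 2039 sites (0.696%) of the merged list. The 5 NORAD sites were at positions 306 to 468, 625 to 710, 1142 to 1313, 2422 to 2547 and 4603 to 4666. ssRNase alone stood behind 15 NORAD, 50 TUG1 and 28 OIP5-AS1 sites, and dsRNase alone behind 6, 2 and 1. Merged sites grow with the lists behind them, and they repeat the replicate sites, so they are no further evidence.

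**Figure D4:**
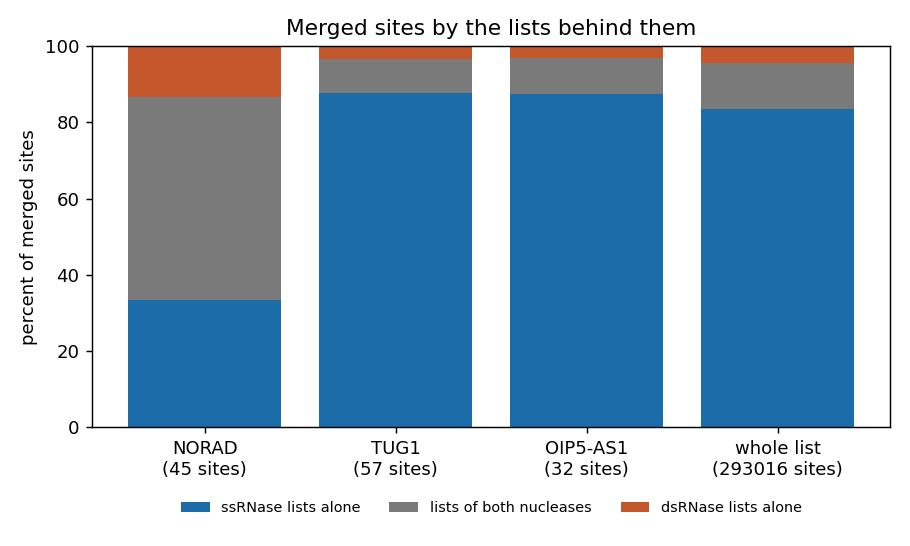
Merged sites of each RNA and of the whole merged list, split by the nuclease whose lists stand behind them (ssRNase alone, dsRNase alone or both). Both nucleases stand behind 53.3% of NORAD sites and 12% of the whole list.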

How the data were processed

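The labels describe cross-linked HEK293T lysates digested with ssRNase or dsRNase and libraries normalised with a duplex-specific nuclease, a step that lowers abundant sequences. The submitters' processing notes name cutadapt 0.9.5 (an adapter trimmer), TopHat2 2.0.9 (an aligner) and build hg19. The list names give CSAR as the site caller, with a false discovery rate of 5%. How reads that map to several places were handled is not known here. Each deposited list gives positions, read as 1-based and inclusive, and a score per site made by the authors, whose scale is not given, so it only ranked sites within a list.

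The members and lists were chosen with earlier results of these data known. Sites were assigned by midpoint. Bases per 1000000 site bases were compared as log2(share + 20) with limma 3.58.1 in R 4.3.3 over 31429 features, with Benjamini-Hochberg adjustment and a threshold of 0.05, after a filter that kept features with a site in at least 3 of 6 lists; all 3 loci passed. Bases and sites were compared by 2-sided exact permutation tests. The fit and the overlap counts were tested on simulated data. Deviations of same-numbered lists had correlations of 0.0174, -0.0631 and -0.0336 over features, and those of differently numbered lists -0.100 to 0.0926. The main fit did not pair lists by number. Whether same-numbered libraries share a preparation is not known. Depth is unknown. Genes were named by being the 3 members. Alternatives were other pseudocounts, filters, scalings, site measures, score cuts, overlaps, a replicate block and leaving out each list.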

Additional observations from a re-analysis of the deposited data

How the results depend on the processing

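No alternative turned the direction of a difference between nucleases. For NORAD, the difference in share, -1.61, stayed negative but lost its call with equal numbers of best-scoring sites (-0.81, limma adjusted p = 0.102), and with a replicate block (-1.61, limma adjusted p = 0.0617). Leaving out 1 list gave -1.82 to -1.39 (limma adjusted p from 0.0264 to 0.389). Leaving out 1 list gave 0.84 to 1.67 for TUG1 and 0.36 to 1.78 for OIP5-AS1. Over all 14 alternatives the TUG1 difference was 0.69 to 1.67, passing without dsRNase replicate 2 (limma adjusted p = 0.0255), and that of OIP5-AS1 was 0.36 to 1.83, passing in none. The number of features called, 10562 (33.6% of those tested), was 6983 with a pseudocount of 100, 5714 with numbers of sites and 4739 with equal lists, which is 36.4% of the 13014 features tested there. It was 13614 with a pseudocount of 5 and 12175 with scaling within strand. Calls higher with ssRNase made up 79.0% of all calls, 65.5% with numbers of sites and 62.5% with equal lists. They made up 1.36%, 0% and 0% of calls without ssRNase replicates 1, 2 and 3, where a feature needed a dsRNase site to pass the filter. The count was 147, 51 and 45 without ssRNase replicates 1, 2 and 3, where 16300, 19691 and 16481 features were tested, and 0 with the replicate block in limma, where 11365 had an unadjusted p under 0.05; no other tool was run. For bases, the replicate block allowed no p under 0.25. The mean share of NORAD dsRNase sites found again, 67.1%, was 55.1% when an overlap of 50% of the site was required, and that of OIP5-AS1, 41.7%, was 0% among the better-scoring 50% of sites, where 1 OIP5-AS1 dsRNase site was left, so that no overlap was possible, and TUG1 had none. The causes were not tested. With 3 lists a nuclease, unknown depth and few dsRNase sites on TUG1 and OIP5-AS1, missing sites do not show that protein is absent.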

Other observations

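The 10000 bp beside each locus differed among the RNAs. NORAD had no same-strand site in any list on either side. Upstream of OIP5-AS1 there were 7, 6 and 6 sites in ssRNase lists, against 0, 2 and 1 in dsRNase lists, and downstream there were none. Upstream of TUG1 there were 4, 0 and 1 sites in ssRNase lists and none in dsRNase lists, and downstream there was 1 site, in ssRNase replicate 1. Within NORAD, neighbouring sites lay 98.5, 158 and 154.5 bases apart at the median in ssRNase lists, against 224.5, 213 and 239.5 in dsRNase lists.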
